A study of Mus musculus with 20 samples.

Results

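Replication-dependent histone genes encode the core histones H2A, H2B, H3 and H4 and the linker histone H1 that package newly copied DNA. They were found in the table of 3′ UTR read counts by placing each UTR start (mouse genome build GRCm38) on the clustered histone genes, known by the symbols H1f1 to H1f5, H2ac, H2bc, H3c and H4c plus a number, or by the older names Hist1h, Hist2h, Hist3h and Hist4h. The testis H1 gene H1f6, whose older name is Hist1h1t, was left out. The RefSeq annotation held 66 such genes, and 55 of them had a row among the 20586 rows of the table: 4 for H1, 15 for H2A, 14 for H2B, 12 for H3 and 10 for H4. Of these, 46 lay on chromosome 13, 7 on chromosome 3 and 2 on chromosome 11. The 11 genes H2ac20, H4c14, H2bc18, H4f16, H2bc13, H2bc14, H4c12, H2bc15, H1f5, H2ac22 and H2ac1 had no row that could be placed and were not analysed here. For 50 members the UTR start fell within 50 bases of the RefSeq gene. For H4c9, H3c3, H2ac8, H2ac6 and H3c15 it lay 144, 69, 146, 2006 and 369 bases past the annotated 3′ end.

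The mRNAs of these genes are known for ending in a conserved stem-loop in place of a poly(A) tail. The stem-loop binding protein SLBP and the U7 small nuclear ribonucleoprotein direct their 3′ end cleavage, and the transcripts accumulate in S phase and are degraded when DNA synthesis stops. CPEB4, the protein precipitated in this study, binds U-rich elements in the 3′ UTRs of mRNAs and is known for controlling the length of their poly(A) tails in the cytoplasm.

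The study sequenced RNA precipitated with an antibody to CPEB4 (IP) and the matching input RNA from CD8 T cells of Cpeb4 knockout (KO) and wild-type (WT) C57BL/6 mice. All 4 groups, KO IP, WT IP, KO input and WT input, were splenic and lymph node CD8 T cells activated for 48 h with IL-2 at 20 ng/ml and antibodies to CD3 and CD28 at 1 µg/ml each. Input RNA passed once over poly(A) beads and was amplified for 12 PCR cycles, and IP RNA was not selected, although its molecule label also reads polyA RNA, and was amplified for 7 cycles. The labels do not give the part of Cpeb4 that the knockout removes, nor whether the experiments named D1 and RIP8 used different animals. The spread that p-values are measured against is that between these samples and may be technical. Named rows could be read in 9 sequencing runs of 6 libraries: KO IP D1 in batches 2 and 3, WT IP D1 in batches 2 and 3, KO input D1 and KO input RIP8 in batch 2, WT input D1 in batch 2, and WT input RIP8 in batches 1 and 2. Each IP group thus had 1 library and each input group 2. In every list of 9 values below, runs stand in that order.

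The runs differed in depth more than in label. Over 1000000 reads were counted in 4 runs, both of KO IP D1, WT IP D1 batch 3 and WT input RIP8 batch 2, with totals of 2605101 to 4182830, and they are called deep runs. The 5 shallow runs held 364113 to 486758 counts, of which 34.8 to 50.1% fell on 1 row, a UTR of the mitochondrial leucyl-tRNA synthetase gene Lars2, against 1.16 to 5.40% in deep runs. That row was dropped, and levels are counts per 1000000 of the remaining 192134 to 4085902 counts (CPM). A CPM here is not divided by UTR length, which the table does not give, so levels are compared between runs and not ranked between genes as abundances. Runs that carry the name of 1 library fell in different depth classes for WT IP D1 and WT input RIP8, so the names below are those of the labels and no direction is read beyond them. Cpeb4 itself, at the UTR starting at position 31931533 of chromosome 11, had 16.2 and 47.1 CPM in KO IP, 123 and 12.0 CPM in WT IP, 110 and 126 CPM in KO input and 125, 195 and 34.3 CPM in WT input. Reads at this UTR do not test the knockout, whose position is unknown here. The 8 CD8 T cell markers summed to 3045 to 10901 CPM, the 5 B cell markers to 0 to 46.9, the 4 myeloid ones with a row to 15.8 to 49.4, the 4 NK cell ones to 3.503 to 21.6, the 2 CD4 T cell ones with a row to 25.7 to 109, and the 4 erythroid and platelet ones with a row to 0 to 0.261.

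The sequence around the gene start is shown for the 2 genes that dominate the deep runs and for 1 gene each of H1, H2A, H2B, H3 and H4, to show the TATAA motif that most of these genes share and the identical bases of the pair. The latter genes were picked for having TATAA shortly before the start. Genes of higher mean CPM that lacked it there, or for which no promoter sequence was given, were passed over. Relative to the annotated start TATAA begins at 37 in H2ac23, −63 in H2ac24, −27 in H1f4, −29 in H2aw, −43 in H2bc8, −5 in H3c13 and −31 in H4c9. Each stretch has 30 bases, written 5′ to 3′ on the strand of the gene, from RefSeq promoters of GRCm38.p6, with TATAA and the octamer ATTTGCAT in capitals. The stretch of H2ac23 lies inside the gene as RefSeq annotates it, since its annotated start is further upstream than that of H2ac24.
H2ac23 (chr13:21810384-21810413, plus strand): tttttgcgcccagagaaaacTATAAgggcc
H2ac24 (chr13:21833529-21833558, minus strand): tttttgcgcccagagaaaacTATAAgggcc
H1f4 (chr13:23622576-23622605, minus strand): cacggcgcagctccgccctaTATAAacggg
H2aw (chr11:58954636-58954665, plus strand): tagcctccctcctgatcataTATAAgagct
H2bc8 (chr13:23571337-23571366, plus strand): ccttATTTGCATagaacctcTATAAaatgg
H3c13 (chr3:96268629-96268658, plus strand): aatcaagacgaagataagtcTATAAgtatg
H4c9 (chr13:22041384-22041413, minus strand): actccggtccgcaagttcccTATAAgaggg

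A promoter of 250 bases before to 50 bases after the start was given for 51 of the 55 genes, 52 promoters in all because H2bc6 had a pair of them. Read on both strands, TATAA occurred in 41 of the 52 (78.8%), against 24.9% of all 32851 promoters. It was in 3 of 4 H1, 13 of 15 H2A, 11 of 13 H2B, 5 of 10 H3 and 9 of 10 H4 promoters. CCAAT occurred in 45 of 52 (86.5%), against 37.4% of all promoters. It was in every H1, H2A, H2B and H3 promoter listed and in 3 of 10 H4 promoters. The octamer ATTTGCAT, known as a binding motif of POU family factors and described in H2B promoters, occurred in 10 of 52 (19.2%), against 1.74% of all promoters: 5 of 15 for H2A, 5 of 13 for H2B, and 0 of 4, 0 of 10 and 0 of 10 for H1, H3 and H4. Matches of different motifs overlapped in 0 of the 52 promoters, and a match is a description of these windows, not a bound site.

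H2ac23 and H2ac24, both H2A genes of chromosome 13 (older names Hist1h2ao and Hist1h2ap), had identical promoters over 200 of 200 overlapping bases once shifted by 100 bases, since RefSeq starts H2ac23 further upstream. The next most similar H2A promoter, that of H2ac7, shared 45.9% with H2ac24 in an ungapped alignment. Promoters of 4 further member pairs were at least 95.8% identical over 260 bases or more: H2ac18 with H2ac19, H3c14 with H3c15, H4c17 with H4c18, and H2bc23 with Hist1h2br, an H2B gene that RefSeq lists as H4bc24. How reads with several matches were counted is not given in the sources used here, and the similarity of the counted UTRs was not measured here. Counts of single genes within these pairs may thus include reads of the partner. Sums and shares that hold both genes of a pair may count such a read at each of them.

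The deposited counts of all 55 members summed to 1510 and 2249 CPM in KO IP, 1441 and 1051 CPM in WT IP, 1849 and 2396 CPM in KO input and 1541, 2086 and 1421 CPM in WT input. These sums differed by at most 2.28-fold between any 2 runs. The 95% Poisson intervals, which cover counting error only, were 1472 to 1550 CPM for the deep KO IP batch 2 run and 1280 to 1616 CPM for the shallow WT IP batch 2 run. The sums of the unselected IPs, 1051 to 2249 CPM, overlapped with those of the poly(A)-selected inputs, 1421 to 2396 CPM.

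**Figure D1:**
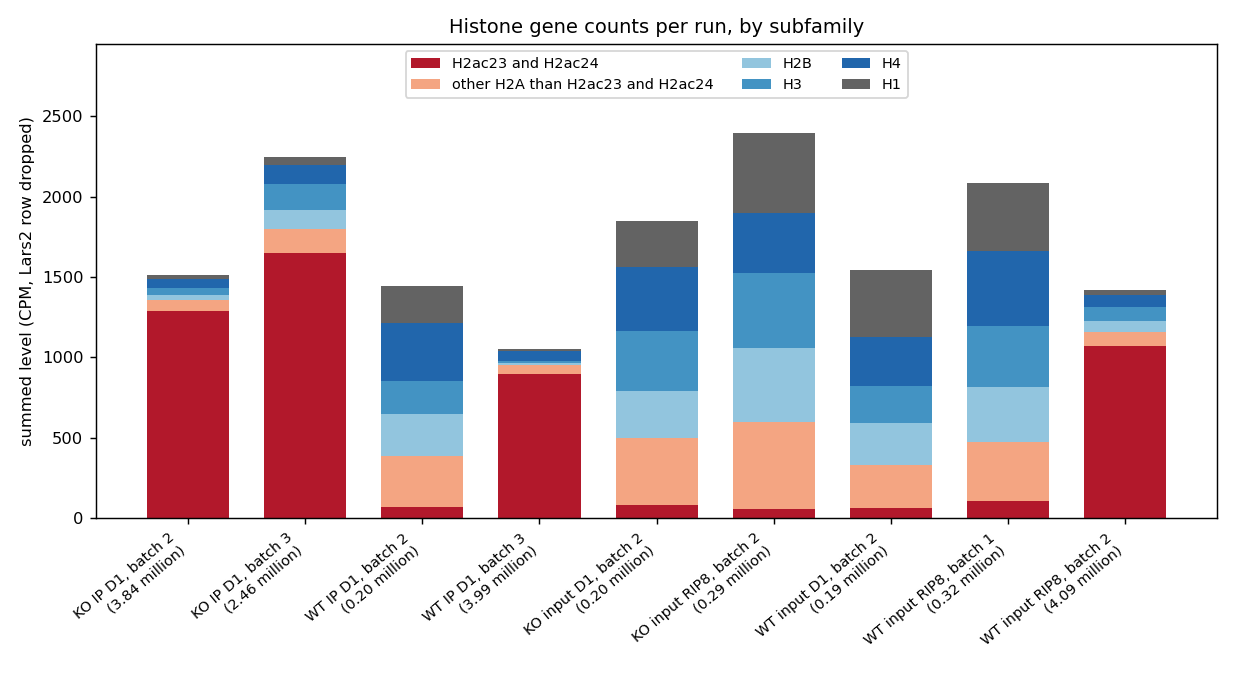
Summed level of the 55 histone genes in each of 9 runs, in CPM after the Lars2 row was dropped, stacked by subfamily, with the run's remaining counts in parentheses. H2ac23 and H2ac24 make up 73.4 to 85.4% of the histone counts in the 4 runs over 1000000 counts and 2.34 to 5.14% in the 5 others.

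Behind these similar sums stood different genes. H2ac23 and H2ac24 took 73.4 to 85.4% of the histone counts in the 4 deep runs and 2.34 to 5.14% in the 5 shallow ones. Together they had 1290 and 1651 CPM in KO IP, 69.1 and 898 CPM in WT IP, 80.0 and 56.0 CPM in KO input and 62.5, 107 and 1071 CPM in WT input. The other 53 members did the opposite, with 220 and 598 CPM in KO IP, 1372 and 153 CPM in WT IP, 1769 and 2340 CPM in KO input and 1478, 1979 and 351 CPM in WT input. The deep and the shallow runs did not overlap in either sum. Among runs of 1 library, the sum of the 53 differed 2.72-fold between the deep runs of KO IP D1, 8.96-fold between the shallow and the deep run of WT IP D1, and 5.64-fold between those of WT input RIP8.

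All 5 subfamilies split this way once the pair was set aside. H1, the linker histones, summed to 11.3 to 51.1 CPM in deep runs and 227 to 497 CPM in shallow runs. H2B summed to 11.3 to 118 CPM in deep and 262 to 459 CPM in shallow runs, and H3 to 17.0 to 162 CPM in deep and 207 to 473 CPM in shallow runs. H4 summed to 55.8 to 120 CPM in deep and 302 to 469 CPM in shallow runs. H2A other than the pair summed to 52.4 to 146 CPM in deep and 265 to 539 CPM in shallow runs. In deep runs the lowest sums of H1, H2B, H3 and other H2A were in WT IP batch 3, and the highest sums of all 5 were in KO IP batch 3.

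Gene by gene, 49 members had at least 20 counts over the 9 runs. The lowest shallow run exceeded the highest deep run for 27 of them (55.1%), against 21.9% of all 11519 rows with that many counts. The lowest deep run exceeded the highest shallow run for 2 of them (4.08%), H2ac23 and H2ac24, against 19.6% of all rows. The split was made here on total counts after those were seen, and no test was run on it. Levels of the remaining 20 overlapped between deep and shallow runs. The 27 include genes with 1 count in a shallow run, such as H3c3 and H2ac12 in WT input D1. The share of all rows was not matched to the members for count.

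**Figure D2:**
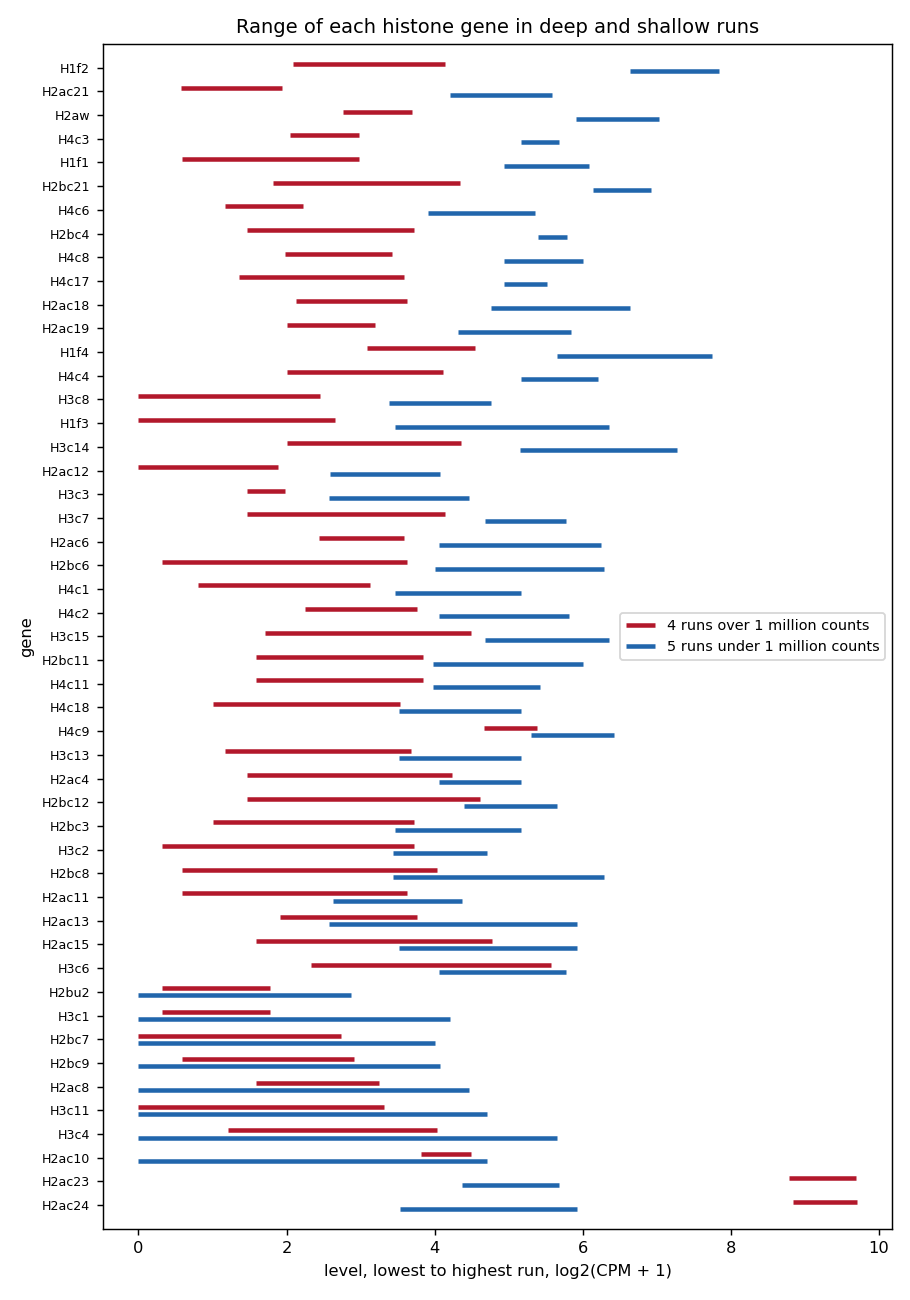
Range of each of the 49 histone genes with at least 20 counts, from its lowest to its highest run on the log2(CPM + 1) scale, in the 4 runs over 1000000 counts (red) and the 5 under it (blue). The ranges are apart with the shallow runs higher for 27 genes and with the deep runs higher for H2ac23 and H2ac24, at the bottom.

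Counts were low outside the pair. The highest count of any other member in a run was 162, for H4c9 in WT IP batch 3, and 38 members had at least 1 count in all 9 runs. H2bc22 was at 0 in all 9 runs. H4bc24 had 4 counts over all runs, H2bc1 5, H2bc23 12, H3c10 17 and H2ac7 18. H2bc23 and H4bc24 are the H2B neighbours of the pair, 167 bases from H2ac23 and 267 bases from H2ac24, and RefSeq gives each a span of 3788 bases, with the counted UTR starting at position 21806412 for H2bc23 and 21835843 for H4bc24.

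**Figure D3:**
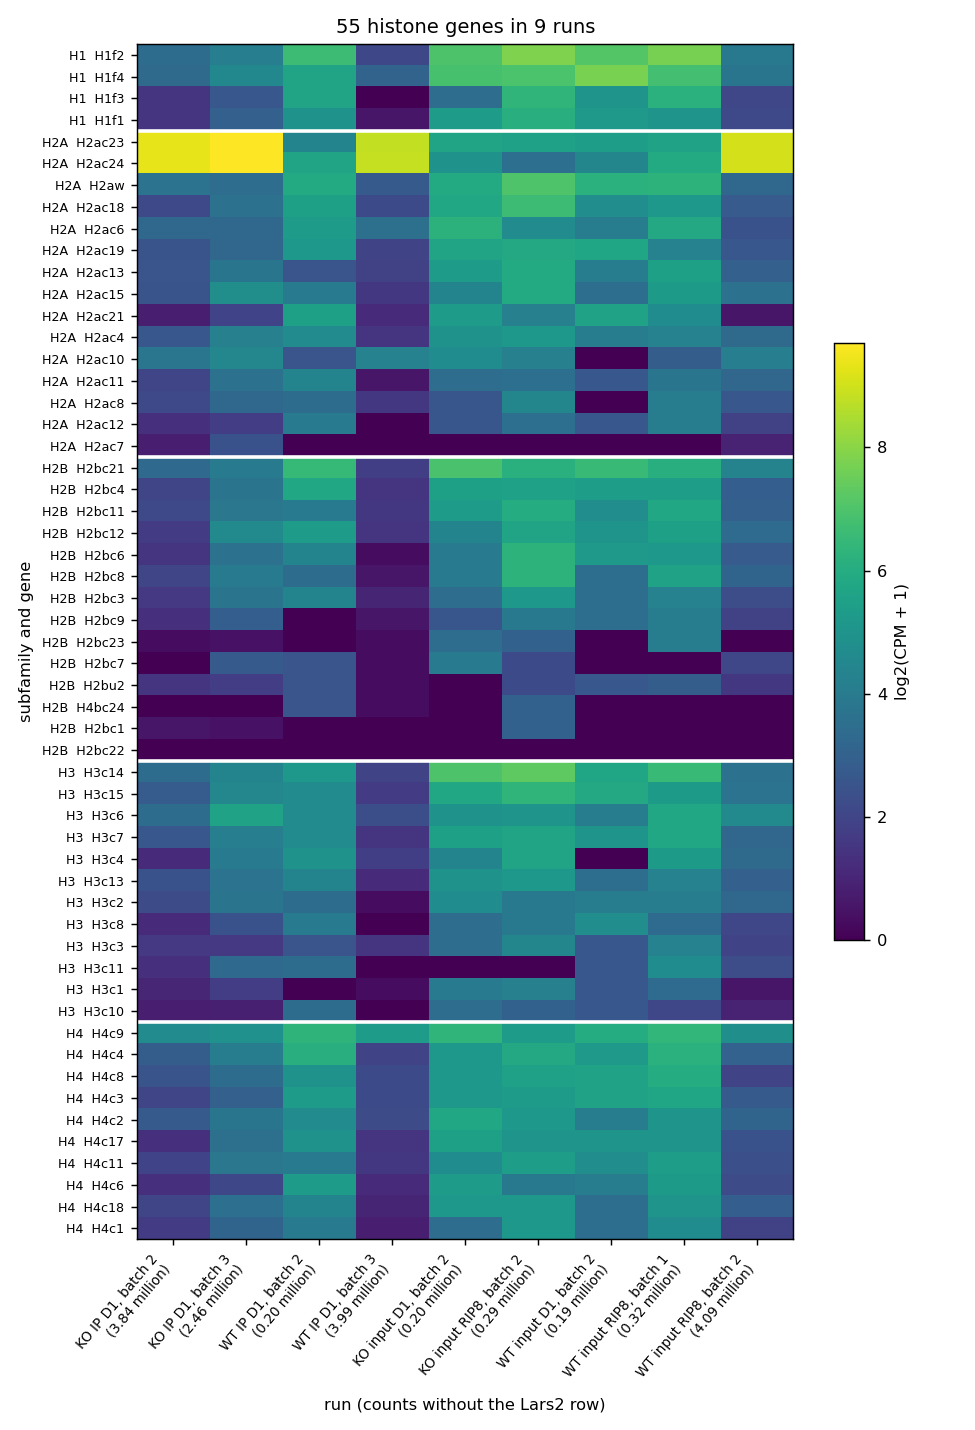
Level of each of the 55 histone genes in each of the 9 runs, as log2(CPM + 1), with genes ordered by subfamily and then by mean level. H2ac23 and H2ac24 are the brightest rows in the 4 deep runs, and most other rows are darker there than in the 5 shallow runs.

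Within H2A, H2ac23 had 650, 823, 19.7, 442, 49.98, 45.5, 41.6, 47.3 and 536 CPM in the 9 runs. H2ac24 had 641, 829, 49.4, 457, 29.99, 10.5, 20.8, 59.9 and 534 CPM. In the deep runs the ratio of H2ac23 to H2ac24 counts lay between 0.968 and 1.01, from 1763 to 2493 counts each, whereas the shallow runs held 3 to 19 counts of either gene. The UTR of H2ac23 was counted from position 21810860 of chromosome 13, inside the RefSeq gene at 21810367 to 21810918, and that of H2ac24 from 21833057, inside 21833024 to 21833475. H2aw, an H2A gene of the small chromosome 11 cluster, had 12.0, 10.1, 59.2, 5.76, 59.98, 130, 72.9, 75.6 and 8.57 CPM. H2ac18, in the chromosome 3 cluster, had 3.39, 11.4, 44.4, 3.51, 55.0, 98.1, 26.02, 34.7 and 5.87 CPM. Both were higher in every shallow run than in any deep run.

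Within H1, whose proteins bind linker DNA between nucleosomes, H1f2 had 9.64, 16.6, 98.7, 3.26, 125, 228, 135, 208 and 14.2 CPM. H1f4 had 9.12, 22.3, 49.4, 7.52, 115, 123, 213, 110 and 12.5 CPM. H1f3 had 1.82, 5.27, 49.4, 0, 10.00, 80.6, 31.2, 72.5 and 3.18 CPM. All 3 were higher in every shallow run than in any deep run. H1f3 had no count among the 3990722 of WT IP batch 3, which does not show that it was absent.

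H3c14, the H3 gene with the highest mean CPM over all 9 runs, had 9.64, 19.5, 34.5, 3.01, 125, 154, 52.1, 94.5 and 11.3 CPM. In the 4 deep runs H3c6 was above it, with 9.90 and 46.7 CPM in KO IP, 4.01 CPM in WT IP batch 3 and 24.2 CPM in WT input RIP8 batch 2. H3c15, its near copy, had 5.99, 21.5, 24.7, 2.26, 55.0, 80.6, 57.3, 37.8 and 12.0 CPM. H2bc21, the H2B gene with the highest mean CPM over the 9 runs, had 8.86, 14.6, 88.8, 2.51, 120, 70.1, 93.7, 69.3 and 19.3 CPM. In H3c14, H3c15 and H2bc21 WT IP batch 3 was the lowest of the 9 runs. H4c9, the H4 gene with the highest such mean, had 24.5, 28.8, 79.0, 40.6, 80.0, 38.5, 62.5, 85.1 and 27.7 CPM, and H4c4 had 6.25, 16.2, 69.1, 3.01, 35.0, 56.0, 36.4, 72.5 and 7.34 CPM. H4c9 was the 1 gene, of the 12 given here in all 9 runs, whose deep and shallow runs overlapped, with WT IP batch 3 above KO input RIP8, while H4c4 was higher in every shallow run than in any deep run.

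The 5 comparisons of the design were fitted over all rows with edgeR's quasi-likelihood test on the 6 libraries, with the runs of a library summed. Counts were summed unscaled, so a deep run outweighed a shallow run of its library. Without Lars2, WT IP D1 held 202633 counts from batch 2 and 3990722 from batch 3. WT input RIP8 held 317395 from batch 1 and 4085902 from batch 2. Folds of these libraries thus follow mostly their deep run, not the mean of the CPM values of both runs. In these bulk samples fewer transcribing cells and less RNA per cell cannot be told apart. Of 11496 rows tested, 50 were histone genes, and 0 rows (0% called) reached an adjusted p of 0.05 in any of the 5 comparisons. Fold changes of individual genes below are log2 values, and those given with an SE come from this fit, in which none passed the test. H3c11, with 0 counts in both KO input libraries, is among the 50, and leaving it out moved the 5 medians by 0.102 at most.

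KO IP against WT IP asks whether the same precipitation yields different RNA from knockout cells. Of the 50 histone genes, 42 had a value above 0, with a median of 0.95, against a median of 0.0137 over all 11496 rows. In this fit no histone gene was at an unadjusted p under 0.05, against 33 of all rows. With the runs of a library summed, 0 rows were called by edgeR (0%), DESeq2 or limma voom. The medians were 1.51 over 10 H2B genes, 1.44 over 12 H3 genes, 0.41 over 14 H2A genes, 0.41 over 10 H4 genes and 0.29 over 4 H1 genes. H3c2 had 3.65 and 12.2 CPM in KO IP, against 9.87 and 0.251 CPM in WT IP (log2 fold change 2.90 ± 1.50 SE). H2bc8 had 3.13 and 15.4 CPM in KO IP, against 9.87 and 0.501 CPM in WT IP (2.68 ± 1.46). On the lower side were H4c9 (−1.02 ± 0.98) and H2ac21, with 0.782 and 2.84 CPM in KO IP, against 44.4 and 1.25 CPM in WT IP (−1.37 ± 1.68). The adjusted p by edgeR was 1.00 for each of these 4 genes.

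The direction differed between the batch 2 and the batch 3 runs. In the batch 2 runs alone, where the KO IP run is deep and the WT IP run shallow, 3 of 30 tested histone genes were above 0 and the median was −2.27. In the batch 3 runs, both deep, 35 of 37 were above 0 and the median was 2.06. With these runs edgeR called 537 of 7933 rows (6.77%) and 0 of the 37 histone genes. Without the pair the histone sum was 220 CPM in KO IP, against 1372 CPM in WT IP, in batch 2, and 598 CPM in KO IP, against 153 CPM in WT IP, in batch 3. The pair was higher in KO IP in both batches, at 1290 CPM in KO IP, against 69.1 CPM in WT IP, in batch 2, and at 1651 CPM in KO IP, against 898 CPM in WT IP, in batch 3, which is 1.84-fold. The part of depth in these values was not tested.

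**Figure D4:**
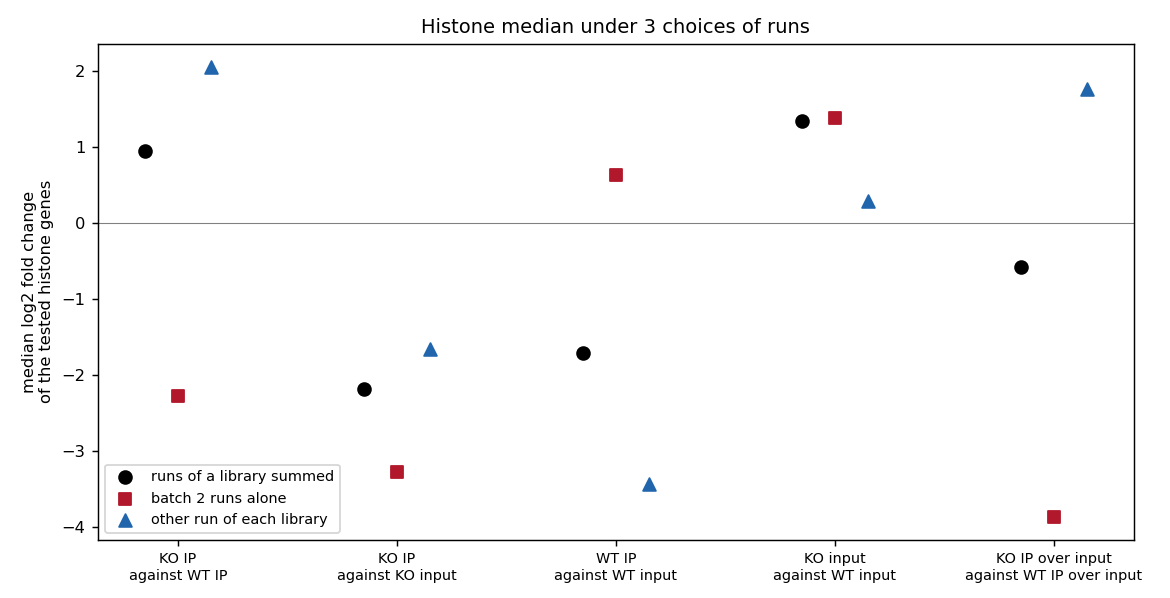
Median log2 fold change of the tested histone genes in each comparison, with the runs of a library summed (50 genes), with the batch 2 run of each library alone (30 genes) and with the other run where a library had one (37 genes). In KO IP against WT IP the 3 medians are 0.95, −2.27 and 2.06.

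KO IP against KO input sets the unselected precipitate of knockout cells against their poly(A) RNA. Here 46 of the 50 histone genes were below 0, with a median of −2.18, against 0.20 over all rows. edgeR called 0 rows (0%), with 14 histone genes and 1723 of all rows at an unadjusted p under 0.05. limma voom also called 0, and DESeq2 called 125 rows higher, H2ac23 and H2ac24 among them, and 71 lower, H1f2 among them (1.7% of all rows). H2ac24 (5.48 ± 1.37 SE) and H2ac23 (4.18 ± 1.15) had the smallest p on the higher side, each with an edgeR adjusted p of 0.259. H1f2 (−3.58 ± 1.10, adjusted p = 0.259 by edgeR) and H3c14 (−3.10 ± 1.00, adjusted p = 0.264) had it on the lower side. H1 had a median of −3.56, H4 −2.19, H3 −2.06, H2B −2.01 and H2A −1.60. Both KO IP runs were deep and both KO input runs shallow, so in this comparison depth and group cannot be told apart.

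These calls depended on which other library shared the fit. With a WT input library left out, only the KO inputs measured the spread. Without WT input D1, 28 of 50 histone genes passed edgeR's threshold, 2 higher and 26 lower, against 25.7% of all rows. Without WT input RIP8, 20 of 36 passed, 2 higher and 18 lower, against 35.2% of all rows. When the runs set aside in the batch 2 fit were taken in their place, 10 of 37 passed, 2 higher and 8 lower, a share near the 22.3% of all rows. H2ac23 and H2ac24 were the 2 higher genes in all 3 of these fits. Over all 13 settings tried (edgeR, DESeq2 or limma) the log2 fold change of H2ac24 lay between 4.91 and 6.54, and that of H1f2 between −3.98 and −3.00. Whether either gene passed the threshold depended on the setting.

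WT IP against WT input sets the unselected precipitate of wild-type cells against their poly(A) RNA. Precipitation, poly(A) selection and the number of PCR cycles cannot be told apart in it. Of the 50 histone genes 45 were below 0, with a median of −1.72, against −0.0998 over all rows. edgeR called 0 rows (0%), with 7 histone genes and 878 of all rows at an unadjusted p under 0.05, while DESeq2 called 43 rows (0.374%), none of them histone genes, and limma voom 0. H1f2 (−2.66 ± 1.07) and H1f4 (−2.87 ± 1.22) had the smallest p on the lower side, both with an adjusted p of 0.637 by edgeR. On the higher side H2ac10 had 4.94 and 18.8 CPM in WT IP, against 0, 6.30 and 16.6 CPM in WT input (1.15 ± 1.13), and H2ac23 had 1.03 ± 1.08.

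The 2 choices of run gave opposite results here as well. With batch 2 runs alone the WT IP run is shallow, and the WT input runs are the shallow one of D1 and the deep one of RIP8. There 25 of 30 histone genes were above 0, with a median of 0.63, and H1f2 had 0.52. Over all rows 45.6% were above 0, with a median of −0.0987. With the other run of each library, where the WT IP run is deep and both WT input runs are shallow, the median was −3.44, and 30 of 37 histone genes passed edgeR's threshold, 28 lower and H2ac23 and H2ac24 higher, against 47.6% of all rows. Without WT input RIP8, 11 of 36 histone genes passed, 2 higher and 9 lower, a share near the 34.5% of all rows, and without WT input D1, 1 of 50 passed, against 9.14% of all rows.

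KO input against WT input compares poly(A) RNA of the genotypes and is the only comparison with 2 libraries on each side. Of the 50 histone genes 46 were above 0, with a median of 1.34, against −0.0990 over all rows. edgeR called 0 rows (0%), with 6 histone genes and 600 of all rows at an unadjusted p under 0.05, limma voom called 0, and DESeq2 called 24 (0.209%), of which H2ac24, lower, was the 1 histone gene. H3c14 (2.16 ± 0.78) and H2ac18 (2.46 ± 0.93) had the smallest p on the higher side. H2ac24 (−3.96 ± 1.24) and H2ac23 (−2.70 ± 1.02) had it on the lower side, and the adjusted p by edgeR was 0.953 for each of these 4 genes. The WT input RIP8 library held the 1 deep input run, and these values moved with it. Without it the median was 0.53, H2ac23 had 0.22 and 0 of 7658 rows passed. Without WT input D1 the median was 1.91 and 24 of 50 histone genes passed, 22 higher and 2 lower, against 20.2% of all rows. With the shallow batch 1 run of that library in place of both, the median was 0.29 and H2ac23 had 0.08.

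The difference between KO IP over input and WT IP over input is the contrast that a knockout control is built for. Of the 50 histone genes 19 were above 0, with a median of −0.58, against 0.27 over all rows. edgeR called 0 rows (0%), with 2 histone genes and 124 of all rows below 0.05 before adjustment, and neither DESeq2 nor limma voom called any row. H2ac24 (4.34 ± 1.93) was on the higher side, with H3c11, for which no fold is given because it had 0 counts in both KO input libraries, beside 28 in KO IP, 2 in WT IP, and 1 and 24 in WT input. H2ac6, with 8.34 and 8.52 CPM in KO IP, 39.5 and 11.03 CPM in WT IP, 75.0 and 24.5 CPM in KO input and 15.6, 56.7 and 4.41 CPM in WT input, was lower (−3.00 ± 1.53), as was H2ac18 (−2.54 ± 1.48). The adjusted p by edgeR was 1.00 for H2ac24, H2ac6 and H2ac18. The median was −3.87 with batch 2 runs alone, 0.0455 without WT input RIP8 and 1.76 when each library was represented by its other run. Without WT input D1, 5 of 50 histone genes passed edgeR's threshold, a share near the 10.2% of all rows.

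**Figure D5:**
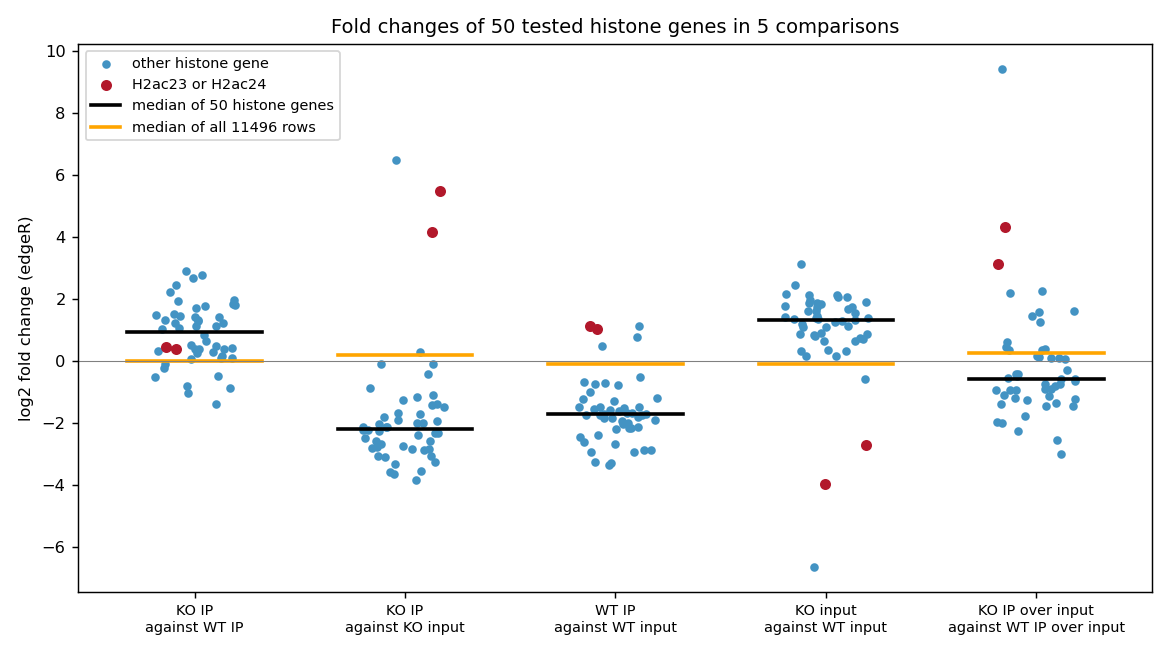
log2 fold change of each of the 50 tested histone genes in the 5 comparisons, with H2ac23 and H2ac24 in red, the median of the 50 as a black bar and the median of all 11496 rows as an orange bar. The point farthest from 0 in the last comparison, and the outermost point of the blue ones in KO IP against KO input and KO input against WT input, is H3c11, whose fold depends on 0 counts in KO input.

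Polyadenylated histone variants, which are made outside S phase as well and replace the canonical histones in chromatin, were taken as a list of 11 genes, 6 of which had a row. Their sum was 784 to 961 CPM in deep runs and 503 to 671 CPM in shallow runs. H2az1, which encodes the variant H2A.Z found at gene starts, had 324, 301, 39.5, 351, 39.99, 59.6, 41.6, 59.9 and 365 CPM in the 9 runs, and H2ax, whose protein is phosphorylated at DNA breaks, had 305, 207, 168, 149, 215, 158, 234, 255 and 259 CPM. H2az1 was higher in each deep run than in any shallow run, as H2ac23, H2ac24 and 19.6% of all 11519 rows with at least 20 counts were. H2ax overlapped between deep and shallow runs. None of the 6 passed edgeR's threshold in any comparison, and their medians ran from −0.68 in KO input against WT input to 1.05 in KO IP against KO input.

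The factors that make and remove the histone mRNA 3′ end overlapped in their sum between deep and shallow runs. The 18 of 23 listed genes with a row summed to 1022 to 1152 CPM in deep runs and 1000 to 1222 CPM in shallow runs. Slbp, which encodes the stem-loop binding protein, had 196, 181, 74.0, 305, 90.0, 102, 130, 120 and 209 CPM. Eri1, a 3′ exonuclease that trims the stem-loop, had 120, 267, 316, 122, 280, 413, 364, 425 and 256 CPM, and Cpsf2, a subunit of the cleavage complex, had 220, 163, 74.0, 246, 55.0, 80.6, 67.7, 78.8 and 137 CPM. Slbp and Cpsf2 were higher in each deep run than in any shallow run, and Eri1 was lower in each. Of all 11519 rows with at least 20 counts, 19.6% were likewise higher in each deep run and 21.9% lower. None of the 18 passed edgeR's threshold in any comparison, and the medians lay between −0.28 and 0.41. Slbp had −0.95 ± 0.92 (SE) in KO IP against WT IP and 1.30 ± 0.77 in WT IP against WT input.

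Histone chaperones, which carry histones to chromatin, had 19 of 22 listed genes with a row and summed to 2989 to 4040 CPM in deep and 2034 to 2911 CPM in shallow runs. Atrx, a remodeller that deposits H3.3, had 167, 319, 612, 98.5, 560, 900, 583, 892 and 348 CPM, and Rbbp4, a histone-binding subunit of several complexes, had 507, 493, 410, 674, 315, 266, 375, 353 and 466 CPM. The genes of S phase entry and nucleotide supply had 15 of 20 with a row and summed to 1843 to 2268 CPM in deep and 1638 to 2049 CPM in shallow runs. E2f2, a transcription factor of the G1 to S transition, had 404, 475, 943, 249, 930, 834, 921, 712 and 431 CPM, and Rrm2, a subunit of ribonucleotide reductase, had 249, 293, 93.8, 182, 120, 105, 125, 129 and 362 CPM. Atrx and E2f2 were higher in each shallow run, as were 21.9% of all 11519 rows with at least 20 counts. Rbbp4 and Rrm2 were higher in each deep run, as were 19.6% of these rows. None of the 19 chaperone genes and none of the 15 S phase genes passed edgeR's threshold in any comparison. The chaperone medians ran from −0.88 in KO input against WT input to 1.27 in KO IP against KO input, and those of the S phase genes from −0.67 to 0.91 in the same comparisons.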

How the data were processed

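Raw read counts per 3′ UTR were deposited by the authors in 1 table with a column per sequencing run, 20 runs in all. Per the submitters' processing notes the tools were featureCounts, R 3.5.1, Bowtie2 2.2.2 and Bowtie 1.2.3 on mm10. No version of featureCounts, annotation, strand setting or rule for reads with several matches is given in the sources used here, and without a strand setting reads of overlapping genes cannot be told apart.

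Rows carry a transcript and a UTR start. Chromosomes were assigned from 3754 starts that equal the start of a RefSeq gene (GRCm38.p6) and from the row order, and 20293 rows had one. The rank correlation between columns was 0.824 to 0.978 within the first 9 and −0.0131 to −0.00164 between these and the last 11, so the last 11 columns entered no other step. One second row of H3c14 with identical counts was dropped.

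Runs of a library were summed and tested with edgeR 4.0.16 in R 4.3.3 (TMM factors, filterByExpr at a minimum count of 10, group means, quasi-likelihood F test, Benjamini-Hochberg over all 11496 rows, threshold 0.05). Only the inputs gave residual degrees of freedom, 2 in all, and the spread of each single IP library was taken to be theirs. The common dispersion was 0.281. An SE is the fold change divided by the square root of the F statistic and restates the test. DESeq2 1.42.0, limma 3.58.1 voom and the other alternatives are given in the closing section. The script was also run on simulated counts, in which all libraries shared the same mean profile apart from the rows changed. That run does not show which differences the fits could find in these data.

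Members, lists and tests were chosen with earlier results of these data known. Levels were named for the 12 members with the highest mean CPM and the top member of each subfamily, and fold changes for members past the threshold or else for the 2 smallest p on each side of 0. Slbp and the 2 tested genes with the highest mean CPM were named from each related list. Intervals are exact Poisson intervals at 95%.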

Additional observations from a re-analysis of the deposited data

Results flagged for a closer look

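KO IP D1 was set against WT IP D1 in the batch 2 and in the batch 3 runs. The histone sum without H2ac23 and H2ac24 moved in opposite directions in them. The log2 ratio was −2.64 in the batch 2 runs, with 220 CPM in KO IP and 1372 CPM in WT IP, and 1.96 in the batch 3 runs, with 598 CPM in KO IP and 153 CPM in WT IP. Each batch had 1 run per group, so the difference between batches was not tested. The batch 2 run of WT IP held 202633 counts without Lars2 and the other 3 runs 2464476 to 3990722, and the part of depth in the difference was not tested.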

How the results depend on the processing

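Each comparison was repeated under 12 alternatives. Keeping the Lars2 row, leaving out TMM factors and limma voom changed neither the side of the median nor the count of 0 histone genes past the threshold in any of the 5 comparisons. Without factors the median of all rows moved by over 0.1, to 0.34 in KO IP against WT IP, −0.0769 in KO IP against KO input, −0.61 in WT IP against WT input and 0.51 in the difference of IP over input, beside histone medians of 1.26, −2.45, −2.24 and −0.37. With DESeq2, 3 of 50 histone genes passed in KO IP against KO input (1.7% of all rows) and 1 of 50 in KO input against WT input (0.209%). Without the filter on low counts, 3 of 54 passed (4.02% of all rows) and 1 of 54 (0.568%).

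With batch 2 runs alone the histone median was −2.27 in KO IP against WT IP, −3.28 in KO IP against KO input, 0.63 in WT IP against WT input and −3.87 in the difference of IP over input, H1f2 (0.52) and H2ac23 (−4.03) turned in WT IP against WT input, and H2bc8 (−1.38) in KO IP against WT IP. With the other run of each library the medians were 2.06 in KO IP against WT IP, −3.44 in WT IP against WT input, 0.29 in KO input against WT input and 1.76 in the difference of IP over input, 10 of 37 histone genes passed in KO IP against KO input (22.3% of all rows) and 30 of 37 in WT IP against WT input (47.6%), and H2ac21 (0.61, KO IP against WT IP) and H2ac23 (0.0783, KO input against WT input) turned. In KO IP against WT IP that choice of runs passed 0 of 37 histone genes (6.77% of all rows). The cause of these changes was not tested.

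Leaving out 1 input library at a time gave medians of 0.47 to 0.95 in KO IP against WT IP, −2.41 to −1.78 in KO IP against KO input, −2.60 to −1.24 in WT IP against WT input, 0.53 to 1.91 in KO input against WT input and −1.02 to 0.0455 in the difference of IP over input. The histone genes past the threshold numbered 0 to 28, 0 to 11, 0 to 24 and 0 to 5 in the last 4 of these, with 0 to 35.2%, 0 to 34.5%, 0 to 20.2% and 0 to 10.2% of all rows, and 0 in KO IP against WT IP. In KO IP against WT IP a very small share of all rows passed without WT input D1, and likewise without WT input RIP8. The 0 histone genes there thus do not set them apart from all rows. H2ac23 ran from −3.58 to 0.22 in KO input against WT input, above 0 without WT input RIP8. Where a group is then left with 1 library, that library is assumed to vary like the others. The spread is then measured between the inputs of the other genotype alone.

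D1 and RIP8 number the inputs, and the labels do not say that a number marks a shared batch or animal. Over 10224 rows the difference of D1 and RIP8 correlated at 0.21 between KO and WT inputs. Summed WT input RIP8 follows mostly its deep run, and the other input libraries were shallow. The value thus cannot tell whether a number marks a shared batch or animal. With the replicate number as a block 14 of 50 histone genes passed in KO IP against KO input (17.2% of all rows) and 2 of 50 in WT IP against WT input (4.66%, near the members' share), and 0 in the other 3 comparisons.

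With Lars2 kept in the totals the histone sums of the 5 shallow runs were 741 to 1508 CPM, and those of the deep runs 1039 to 2128 CPM. Summing all rows of a gene was not run, since each member had 1 row after a second H3c14 row with identical counts was dropped. Shallow runs held 12 to 34 counts of the pair and 278 to 668 of the other members, so single genes were not resolved there.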
